A study of Canis lupus familiaris with 2 samples.

Results

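The miR-34 and miR-449 family was represented by 4 of the 291 dog miRNAs on the chip, cfa-miR-34a, cfa-miR-34b, cfa-miR-34c and cfa-miR-449. The members were taken by name, as every dog miRNA of the miR-34 and miR-449 names, and each had 1 spot per array. Sera were pooled by group, from 3 normal and from 3 dystrophic dogs, and each pool was hybridized to 1 single-colour array. Both groups came from the CXMD_J colony, which carries canine X-linked muscular dystrophy and serves as a model of Duchenne muscular dystrophy, and all dogs were males of 2 months of age, the age at which clinical signs begin. The comparison asks which serum miRNAs differ with the disease. With 1 pool per condition neither the variation between dogs nor that between arrays was measured, and the conditions were not tested against each other. In serum, fewer cells releasing a miRNA and less miRNA released per cell cannot be told apart.

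The members of this family share the seed, the stretch at the 5′ end of a miRNA that pairs with target mRNAs, and they can act on overlapping sets of targets. miR-34a, miR-34b and miR-34c are known as direct transcriptional targets of p53 that restrain cell-cycle and survival genes. miR-449 is known from multiciliated epithelia, where it acts together with miR-34b and miR-34c. All 4 members matched a gene in the RefSeq annotation of the assembly UU_Cfam_GSD_1.0 by a name listed there as a synonym, and the gene matched to miR-449 was MIR449A. The genes of miR-34b and miR-34c were next to each other, both within the span of HOATZ, a gene of cilia and flagella. On the outer sides, BTG4 was nearest to that of miR-34b and LAYN to that of miR-34c. The gene of miR-449 lay within the span of CDC20B and next to that of miR-449b, which was not analysed here. The miR-34a gene stood apart, with no overlapping gene, beside GPR157. Genes of long non-coding RNAs were left out when the nearest genes were named.

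In normal serum all members, and in dystrophic serum miR-34b and miR-34c, were close to the background of the chip. Spot values are median intensities in scanner units. Detection required a spot more than 2 SD over the mean of the blank spots, computed after the outer 5% of blanks at each end had been removed, and also that the scanner software had not marked the spot. The limit was 125.9 for normal serum and 124.0 for dystrophic serum. 1 of the 4 members was detected in normal serum, miR-34a, compared with 54.6% of all dog miRNAs. 1 of the 4 was detected in dystrophic serum, miR-449, compared with 64.6% of all. miR-34b and miR-34c belonged to the 29.6% of dog miRNAs detected in neither serum. No member was detected in both, so that no member had a ratio from usable spots on both arrays.

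miR-34a is the member most widely expressed in tissues. Its spot read 128.8 in normal serum, 2.94 units above the limit of that array. After subtraction of the mean blank spot and scaling of the detected dog miRNAs to a median of 25, its normalized signal was 11.2 ± 4.09, the error being 1 SD of the trimmed blank spots on the same scale. Some spots without a target reached this reading: 5.68% of the 1408 blank spots, 31 of the 181 spots named as carrying no probe and 21 of the 32 negative-control spots were at least as bright. In the block of the chip that holds miR-34a the blank spots were brighter than elsewhere, with a median of 121.3 compared with 117.4 over the whole array, and 7 of the 44 blanks of the block reached the spot. The local background around the spot was 110.9, and 96.5% of the 1925 other spots within 10% of its brightness had one as low or lower, with a median of 83.2. These spots reached down to 116.0 units and so took in the blank level, with a mean of 118.0. Local background rose with spot intensity over this array, with a Pearson r of 0.969 between the logarithms. The high rank therefore does not show a background that is high for the brightness. With the limit at 3 SD or from the spots without a probe, with untrimmed blank spots, with the blank level of each block or with the local background subtracted, miR-34a was no longer detected and the number of members detected in normal serum was 0.

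The dystrophic spot of miR-34a could not be used. It read 203.5, but the scanner software marked it as NG at all 3 gains, and it was the only spot of the 3200 on this array with such a mark at any gain. miR-34a is therefore among the 5.84% of dog miRNAs counted as detected in normal serum alone, and this entry does not show that its level was lower in dystrophic serum. The reading was 74.7 units above that of the normal array. No spot without a probe and no negative control on the dystrophic array was as bright, and 1 blank spot was. The file does not give the reason for the mark. The local background around the spot was 116.8, and 11 of the 66 other spots within 10% of its brightness had a local background as low or lower, with a median of 139.7 for these 66. Of the 8 spots that surround it, miR-503 read 181.4 in normal and 265.1 in dystrophic serum, and miR-302d 125.5 and 138.0. Each of the 8 read higher on the dystrophic array, by ratios from 1.05 to 1.46 before background subtraction, whereas that of the miR-34a spot was 1.58.

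**Figure D1:**
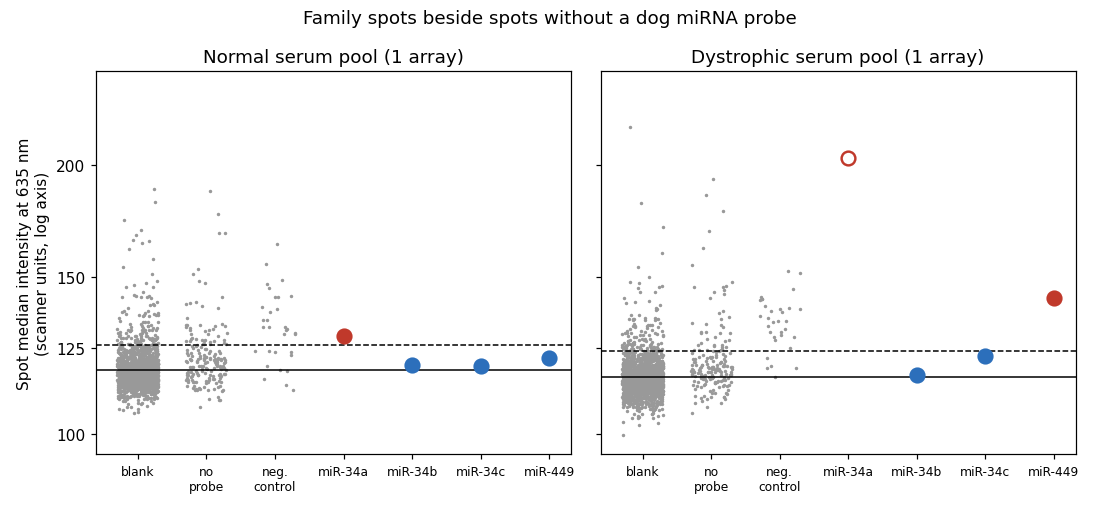
Spot median intensity on a log axis in scanner units for each family member, beside all blank spots, spots named as without a probe and negative controls of the same array; the solid line is the mean of the trimmed blank spots and the dashed line the detection limit. Filled red marks a detected member, blue a member below the limit and open red the miR-34a spot marked as unusable, which read 203.5; miR-449 passed the limit on the dystrophic array with 142.0.

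miR-34b and miR-34c, which are made from 1 shared transcript, were at the blank level in both sera. The spot of miR-34b read 119.5 in normal and 116.6 in dystrophic serum, 1.45 and 0.785 units above the mean blank spot. The spot of miR-34c read 119.2 and 122.2, 1.16 and 6.35 units above it. The nearest of these values to a limit was that of miR-34c in dystrophic serum, which fell short by 1.89 units. The normalized difference, dystrophic minus normal, was -0.86 for miR-34b and 4.04 for miR-34c, with an error of 5.32 from the blank spots of both arrays. Both differences were smaller than this error. A change in either miRNA was thus not detectable at this signal, which does not show that their levels were equal. For comparison, the median difference over the 290 dog miRNAs with usable spots was 3.81, and 49.3% of these miRNAs had a difference as large as that of miR-34c or larger.

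miR-449 was the only member with a usable spot above the limit in dystrophic serum. Its spot read 121.7 in normal serum, 4.20 units under the limit, and 142.0 in dystrophic serum, 18.0 units over it. The normalized signal in dystrophic serum was 21.7 ± 3.40. The lowest detected signal of normal serum was 8.30, so that this is at least 2.61-fold higher, and 15.8% of all dog miRNAs were likewise detected in dystrophic serum alone. The normalized difference was 17.9, which is 3.36 times its error of 5.32. This error comes from trimmed blanks and leaves out the brightest of them: the same difference or a larger one was found at 18 of the 1408 blank positions and at 3 of the 181 positions without a probe. Among the dog miRNAs with usable spots, 41 of 290, or 14.1%, had a difference as large or larger. On the dystrophic array 14 spots without a probe and 4 negative controls were at least as bright as miR-449, as were 2 of the 44 blanks in its own block. With the limit at the 95th percentile of the spots without a probe, 146.2 units, miR-449 was not detected, although 94 dog miRNAs were, and with the local background subtracted it was not detected either, so that the number of members detected in dystrophic serum was 0 in both cases. Over the 3200 spots of the dystrophic array the local background rose with the spot intensity, with a Pearson r of 0.976 between their logarithms. How much of a spot's own signal is removed with its local background was not tested. The bound of miR-449 was 1.10 when no background was subtracted and 1.61 with the limit at 3 SD.

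**Figure D2:**
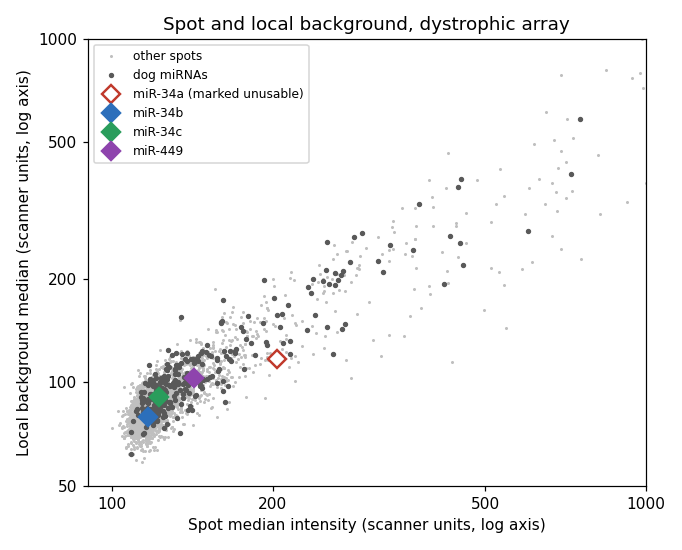
Local background median against spot median intensity on the dystrophic array, both in scanner units on log axes; grey points are spots other than dog miRNAs, dark points dog miRNAs and diamonds the family members, and 85 of the 3200 spots lie outside the axes. The open diamond is the marked spot of miR-34a at 203.5 with a local background of 116.8, and miR-449, miR-34c and miR-34b lie at lower values of both.

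The dog miRNAs whose spots were nearest to those of miR-449 over the 2 arrays were miR-433 and miR-411, at distances of 0.45 and 0.67 SD of the blank spots. miR-433 read 123.4 and 141.9, and miR-411 120.0 and 139.9, in normal and dystrophic serum. The spots nearest to miR-34a were farther away and were found with its marked reading included, miR-128 at 2.65 SD and miR-127 at 3.66 SD. These distances rest on 2 arrays and describe similar readings only. The spots of this family can share labelled RNA because the mature sequences are alike, and the chip cannot tell how much of a reading came from a related member.

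The list of other miRNAs that p53 is known to act on, in transcription or in processing, held 9 and was not exhaustive. The epithelial miRNAs, miR-200c and miR-141 among them, were counted in a separate list. 8 of the 9 were on the chip. 4 of them were detected in both sera, beside 48.8% of all dog miRNAs, with a median dystrophic over normal ratio of 0.486, while the median over the 142 dog miRNAs detected in both was 1.09. None was above 2-fold, compared with 13.4% of these 142. 2 were at 0.5-fold or less, compared with 5.63%: miR-16, which restrains the cell cycle, had a ratio of 0.346 with normalized signals of 181.6 and 62.7, and its relative miR-15a had signals of 17.5 and 8.14, a ratio of 0.466. The dystrophic spot of miR-15a was 1.61 units over the limit and was not above one of 3 SD. miR-145, a miRNA of smooth muscle, had signals of 73.6 and 37.2, a ratio of 0.506, and miR-192, of liver and gut, 30.0 and 26.7, a ratio of 0.889. miR-107 was detected in normal serum alone, at least 2.16-fold higher there, and miR-194, miR-215 and miR-143 in neither serum. The normal spots of miR-107 and miR-15a read 132.3 and 134.8, under the limit of that array from the spots without a probe, 140.7 units. miR-16 is also abundant in red cells. Of the red-cell list, miR-451 was the brightest and read 1275.8 in normal and 250.0 in dystrophic serum on the normalized scale. miR-144 was below the limit in both. The summed signal of the 3 miRNAs of this list on the chip was 1458.3 and 317.8. The part of red-cell RNA in these values was not tested.

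Of the 7 epithelial miRNAs, the group of tissues in which miR-449 is best known, 2 were detected in normal and 5 in dystrophic serum, beside 54.6% and 64.6% of all dog miRNAs. None of the 2 detected in both was above 2-fold or at 0.5-fold or less, beside 13.4% and 5.63% of all. miR-205, a keratinocyte miRNA, was the brightest, with normalized signals of 46.8 and 39.4. miR-200c, which maintains the epithelial state, passed the limit of the dystrophic array only, with a signal of 38.8, at least 4.68-fold above normal serum, and so did miR-200a with 12.3, at least 1.48-fold, and miR-141, whose spots read 124.2 and 124.3, the second 0.282 units over the limit, and gave no fold. miR-200b and miR-429 were detected in neither serum. miR-203 had signals of 23.6 and 13.5. The dystrophic spots of miR-200a and miR-203 read 130.7 and 132.1, under the limit of that array from the spots without a probe, 146.2 units. The median ratio of the 2 detected in both was 0.705. The summed signal of the 7, those below the limit included, was 90.6 in normal and 120.4 in dystrophic serum, but 87.5 and 81.6 without miR-200c, and its part in the reading of miR-449 was not tested. The muscle miRNAs give the scale of a large change on these arrays. miR-133b, which is made in muscle, had signals of 27.8 and 2425.7, a ratio of 87.1. The other muscle miRNAs detected in both sera, miR-133a, miR-133c and miR-206, had ratios of 128.4, 152.4 and 12.6. The normal spot of miR-206 was 2.75 units over the limit and not above one of 3 SD, so that this last ratio rests on a signal close to the background. Those of miR-133a and miR-133c read 132.5 and 131.2 and were above 3 SD. Both were under the limit from the spots without a probe, 140.7 units, so that their ratios also rest on dim normal spots. miR-1 was detected in dystrophic serum only, at least 2.48-fold higher, miR-499 in normal serum only, at least 1.78-fold higher there but not above a limit of 3 SD, and miR-208a and miR-208b in neither. The dystrophic spot of miR-1 read 140.7, under the dystrophic limit from the spots without a probe, 146.2 units. Of the markers of other sources, miR-223 of myeloid cells and platelets had a ratio of 0.549 and miR-122 of liver one of 0.943, from spots 0.43 and 1.61 units over the limits and above 3 SD on neither array.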

How the data were processed

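The authors deposited, for each array, the median intensity of every spot and of its local background with a flag per gain, not normalized; their second deposit is a table of the 291 dog miRNAs with a normalized intensity, to 1 decimal, for the 159 detected in normal and the 188 detected in dystrophic serum. The chip was read with the 3D-Gene Extraction software, whose settings are not given in the sources used here. From each spot intensity the mean of 1266 blank spots, left after 5% had been trimmed at each end, was subtracted; the number trimmed was rounded up, which was known to give the deposited values. The net signals were multiplied by 1 factor per array that sets the median of the detected dog miRNAs to 25, which was 1.04 for normal and 0.827 for dystrophic serum. The results differed from the deposited table by at most 0.0498 and gave the same detection for all 291 miRNAs on both arrays. Where a miRNA was detected in dystrophic serum alone, its ratio was taken against the lowest detected normal signal as a lower bound, and the reverse for normal serum alone. The error of the miR-449 bound, 0.41, came from the blank spots of the dystrophic array alone. It left out the error of the lowest detected normal signal, 8.30, on an array with a blank SD of 4.09 on this scale. It is therefore too small and not comparable with the error of the miR-34a ratio, 2.37, which holds both arrays.

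Members and lists were chosen with earlier results of these data known. Named were all members and the 2 dog miRNAs nearest to miR-34a and miR-449 in net signal divided by the SD of the blank spots. Of each list, the brightest member and any beyond 2-fold or 0.5-fold were named too. To these were added the members on the chip of the red-cell, myeloid and liver lists, which do not hold every miRNA of those sources. The remaining list members, miR-503 and miR-302d were named after their values had been seen. Each condition had 1 array, the number of arrays limits the precision, and no p-value was computed. The steps were tested on simulated data, scored only on miRNAs brighter than the usable spots of this family, so detection near the limit was not tested there. Alternatives concerned the limit, blank spots, background and scaling. The tools were Python 3.11.15 with numpy 2.4.6, pandas 2.3.3 and matplotlib 3.10.9, and limma 3.58.1 under R 4.3.3. miR-605 and miR-486 were not analysed here.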

Additional observations from a re-analysis of the deposited data

Results flagged for a closer look

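On the array of dystrophic serum the miR-34a spot carried a signal that was left out of the comparison between the sera, because the scanner software marked it as unusable. Kept, it would have a normalized signal of 72.5, and its ratio to normal serum would be 6.45 with an error of 2.37 from the blank spots. This error comes from trimmed blanks, with an SD of 3.94 units on the normal array, and leaves out the brightest of them. Over all blank spots of that array the SD was 7.27. The denominator of the ratio was the dim normal spot of 128.8 units, which lay 1.49 of these untrimmed SD over the mean of the trimmed blanks. That spot was not detected with local background subtraction, the limit from the spots without a probe or the blank level of each block. The ratio was then a lower bound, of 1.87, 3.07 and 9.37. With no background removed the ratio was 1.54, and with normexp 1.92. No second spot of miR-34a was on the array, and the value stands as that of a marked spot.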

How the results depend on the processing

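The limits from the blank level of each block and from the spots without a probe, and the counts with local background subtraction, were chosen after the data had been seen. The cause of a moved value was not tested. The number of members detected in normal serum fell from 1 to 0 with detection at 3 SD, untrimmed blank spots, the blank level of each block, local background subtraction or the limit at the 95th percentile of the spots without a probe. In dystrophic serum it was 2 with the marked spot kept, 0 with local background subtraction or the limit from the spots without a probe, and 1 in the other 3 alternatives run for it. The lower bound of miR-449, 2.61, was 1.61 with detection at 3 SD, 1.73 with untrimmed blank spots, 3.29 without scaling, 2.15 when scaled on the miRNAs found on both, 2.08 with quantile normalization, 1.18 with normexp and an offset of 50, and 1.10 without background subtraction. The last 2 leave a constant in both signals and so draw a ratio toward 1. The other 4 alternatives with a value moved it by less than 0.41, its error from the dystrophic array alone. miR-449 was not above the limit with local background subtraction or the limit from the spots without a probe. The ratio of the marked miR-34a spot, 6.45, was 1.54 with no background removed, 1.92 with normexp, and as a lower bound 5.37 with detection at 3 SD, 5.89 with untrimmed blank spots, 1.87 with local background subtraction, 9.37 with the blank level of each block and 3.07 with the limit from the spots without a probe. Local background subtraction removed no blank level, and the spot of miR-34b, at the blank level, kept 32.9 units in normal and 37.4 in dystrophic serum. The bound of 1.87 therefore also holds a remainder in both signals, which can draw a ratio toward 1. The other 4 alternatives, all of scaling, moved the ratio of the marked miR-34a spot by less than its error of 2.37. It stayed above 1 in every alternative run; the deposited table lists no value for it. No paired analysis was possible because the conditions have 1 array apiece, and for the same reason no replicate could be left out.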
